A study of Mus musculus with 4 samples.

Results

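The regions described here are the strong RNA polymerase II (Pol II) peaks of mouse embryonic stem cells that carried clearly more Pol II tags on one side than on the other. They were chosen on the sum of all 4 libraries. Autosomes were cut into bins of 1 kb, and a bin with 100 or more tags that was the highest within 10 bins on each side was taken as a strong peak. The bins 2 to 10 kb away were summed on each side. A peak was kept when the larger sum was 90 or more and at least 2 times the smaller one, and the larger side was taken as the inferred downstream side. Of 4684 strong peaks, 993 met the rule (21.2%). Of the others, 2706 had no side of 90 tags (57.8%) and 985 had such a side but less than a 2-fold difference.

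DNA bound by Pol II was sequenced after immunoprecipitation of chromatin (ChIP-seq). The antibody was to the N-terminus of Rpb1, the largest Pol II subunit, and the cells were V6.5 embryonic stem cells of C57BL/6-129 background. The groups are named by their hairpin RNA: shSpt4 against Spt4, shSpt5 against Spt5, shNelfE against NelfE, and shControl for the control hairpin. Hairpins acted for about 4 days, and all cells, shControl included, received 1 µM flavopiridol for 1 h before crosslinking. Each group was 1 library, so no p-value is given, and every interval covers counting error, or the spread over peaks, within these libraries. Per the labels, the knockdown libraries were run on one flow cell and their cells had 2 passages without feeder fibroblasts, while the shControl library was run on another and its cells had 1 passage, so hairpin, flow cell and passage cannot be told apart. How far each hairpin lowered its target was not analysed here.

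Pol II that has started transcription commonly halts a short way past the start site, where DSIF, the complex of Spt4 and Spt5, and NELF, of which NelfE is a subunit, hold it. The kinase P-TEFb releases it into the gene body by phosphorylating Spt5, NELF and Pol II, and flavopiridol inhibits that kinase. Without flavopiridol, a transcribed gene tends to show a sharp Pol II peak near its start and a lower, wider signal toward its body. Every library here came from treated cells, and the part of the treatment in the flanks was not tested. The antibody used here sees the body of Rpb1 and not the phosphorylated tail, so paused and elongating Pol II are counted alike. Coordinates are on the mouse build mm8, and the gene tables at hand describe another build, so peaks are called by position, carry no gene names, and no promoter sequence is shown.

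The libraries held 2646944 kept tags with shSpt4, 3116313 with shSpt5, 2938052 with shNelfE and 3170090 with shControl, where a kept tag is 1 read per position and strand. Repeated reads left out this way were 8.13% with shSpt4, 17.7% with shSpt5, 10.2% with shNelfE and 9.07% with shControl. With all reads kept and the peaks chosen anew, the shSpt5 median log2 ratio to shControl was −0.84 in the peak bin and −0.51 in the larger flank. With repeated reads left out these medians were −0.77 and −0.50. The part of the higher share of repeated reads in the shSpt5 ratios was not tested further. The 993 peak bins took 2.43% of the kept tags with shSpt4, 1.77% with shSpt5, 2.23% with shNelfE and 2.87% with shControl. Their larger flanks took 2.06% with shSpt4, 1.71% with shSpt5, 2.03% with shNelfE and 2.46% with shControl. Tags per 1000000 kept tags (normalised tags) are the scale of all ratios unless another is named. The density outside peaks moved the other way: in 13713 tiles of 100 kb with 100 or more pooled tags but no bin of 20 or more, it was, relative to shControl, 1.18 times as high with shSpt4, 1.33 times with shSpt5 and 1.16 times with shNelfE. Results on the scale of these peak-free tiles are therefore given beside the main ones, and the part of this difference in each result was not tested.

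The peaks ran over a wide range of heights. The peak bin held a median of 221 pooled tags (range 100 to 3522), which was 78.5 times the density of the peak-free tiles. The larger flank held a median of 192 tags (range 90 to 5098), or 21.3 tags per kb, 7.58 times the peak-free density. The smaller flank held a median of 57 tags (range 0 to 468), 2.25 times that density, so the median ratio between the sides was 3.12. These values chose the peaks and are a description only. Both directions were filled about evenly, with the larger flank at higher coordinates in 498 peaks and at lower coordinates in 495.

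Peaks just inside and just outside the limits had like values. The bins at chr1:173274001-173275000 and chr13:98291001-98292000 entered with 100 tags, and those at chr1:136778001-136779000 and chr17:36578001-36579000 stayed out with 99. Flanks of 90 tags brought in chr1:95655001-95656000 and chr16:38441001-38442000, and flanks of 89 kept out chr1:9530001-9531000 and chr13:95459001-95460000. Sides of 96 and 48 tags brought in chr15:5063001-5064000 and sides of 134 and 67 brought in chr15:38245001-38246000. Sides of 465 and 233 tags kept out chr19:5802001-5803000, at 1.996 times, and sides of 165 and 83 kept out chr11:100528001-100529000, at 1.988 times.

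The label of a flank has to be read with care, because in many of these peaks it was largely a single lower peak. The highest of the 9 flank bins held a median of 38.1% of the flank tags. It held 50% or more in 327 peaks, called concentrated here, under 25% in 201, called spread, and a share between these in 465, called intermediate. That bin reached 100 or more tags in 374 peaks, as many as a strong peak needs, and 50 or more in 689. All 9 flank bins held at least 10 tags in 78 peaks. The highest flank bin was most often 2 kb away, in 215 peaks, and next at 8 kb, in 120, and at 4 kb, in 115, with 73 to 104 peaks at each other distance. A one-sided flank is thus a mixture of an even stretch of Pol II and a neighbouring smaller peak.

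Near the summit the signal was not one-sided. Of the pooled tags 100 to 500 bp from the summit, 48.8% lay on the side of the larger flank (95% interval 48.5 to 49.0), and of those 550 to 1000 bp away, 51.4% (51.0 to 51.8). The share reached 70.4% (70.1 to 70.8) at 1050 to 2000 bp, a stretch that overlaps the summed flank in many peaks. In the bin next to the peak bin, which the sums leave out, it was 57.4% (57.1 to 57.7), and 548 of 993 peaks had more tags there on the larger-flank side. Strong peaks outside the rule gave 54.3% (54.0 to 54.6) where the fold was missed and 54.9% (54.6 to 55.1) where the sum was missed, with their own larger side taken the same way. The pooled share thus lay further to the larger side in the one-sided peaks than in either of the others, beyond counting error. Counted peak by peak there was hardly any difference, since 543 of 985 peaks that missed the fold and 1471 of 2706 that missed the sum also had more tags on that side.

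**Figure D1:**
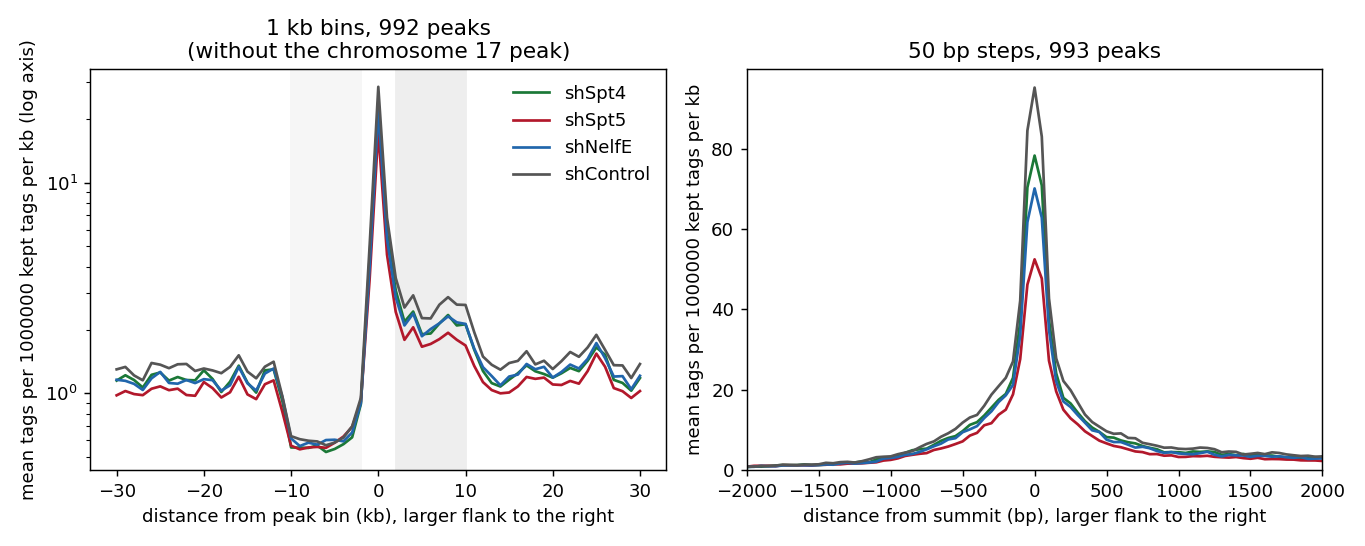
Mean Pol II tags per 1000000 kept tags per kb around the peaks, turned so that the larger flank lies to the right, in shSpt4, shSpt5, shNelfE and shControl. At left are 1 kb bins on a log axis with the summed flanks shaded, for 992 peaks without the chromosome 17 peak of 5098 flank tags, and at right 50 bp steps around the summit on a linear axis, where the sides differ little within 500 bp; the dip on the left side and the raised right side between 2 and 10 kb come from the choice of peaks.

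The side was the same in each library. The larger flank of the pooled tags also held more tags than the other side in 990 peaks with shSpt4, 981 with shSpt5, 990 with shNelfE and 992 with shControl, and in all 4 libraries in 974. These libraries took part in the choice, so each library was also read with peaks and sides chosen on the other 3. In the library left out, the chosen side held 78.6% of the flank tags with shSpt4 (78.3 to 78.9), 73.6% with shSpt5 (73.3 to 74.0), 77.5% with shNelfE (77.2 to 77.7) and 80.8% with shControl (80.6 to 81.1), over 1022, 1119, 1006 and 873 chosen peaks in that order. The remaining strong peaks gave 57.2% with shSpt4, 55.3% with shSpt5, 57.2% with shNelfE and 58.3% with shControl. The asymmetry of the sums was therefore found again in reads that did not choose it, and it was weakest in shSpt5. That library also had the highest density outside peaks, and the part of this density in the share was not tested.

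Beyond the summed bins the asymmetry was small and depended on the form of the flank. At 11 to 20 kb, 52.6% of the pooled tags lay on the larger-flank side (52.4 to 52.8), and 584 of 993 peaks had more tags there. This was close to 52.8% (52.6 to 53.0) in the strong peaks that missed the fold and 52.3% (52.1 to 52.4) in those that missed the sum, so the pooled share was much alike. Peak by peak the lean was somewhat larger in the one-sided peaks: the strong peaks that missed the fold had more tags on the larger-flank side in 550 of 985 peaks, and those that missed the sum in 1506 of 2706. The median peak held 95 tags on the larger-flank side and 74 on the other among one-sided peaks, 108 and 97 where the fold was missed, and 58 and 52 where the sum was missed. Spread flanks gave 60.1% (59.7 to 60.5), with 138 of 201 peaks having more on that side. Intermediate flanks gave 52.0% with 277 of 465 peaks, and concentrated flanks gave 48.6% (48.2 to 48.9) with 169 of 327. For spread flanks the share was 54.1% at 21 to 30 kb, 60.6% at 31 to 40 kb and 58.1% at 41 to 50 kb, always above that of concentrated flanks, which ran between 48.6% and 51.9% at 11 to 50 kb.

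**Figure D2:**
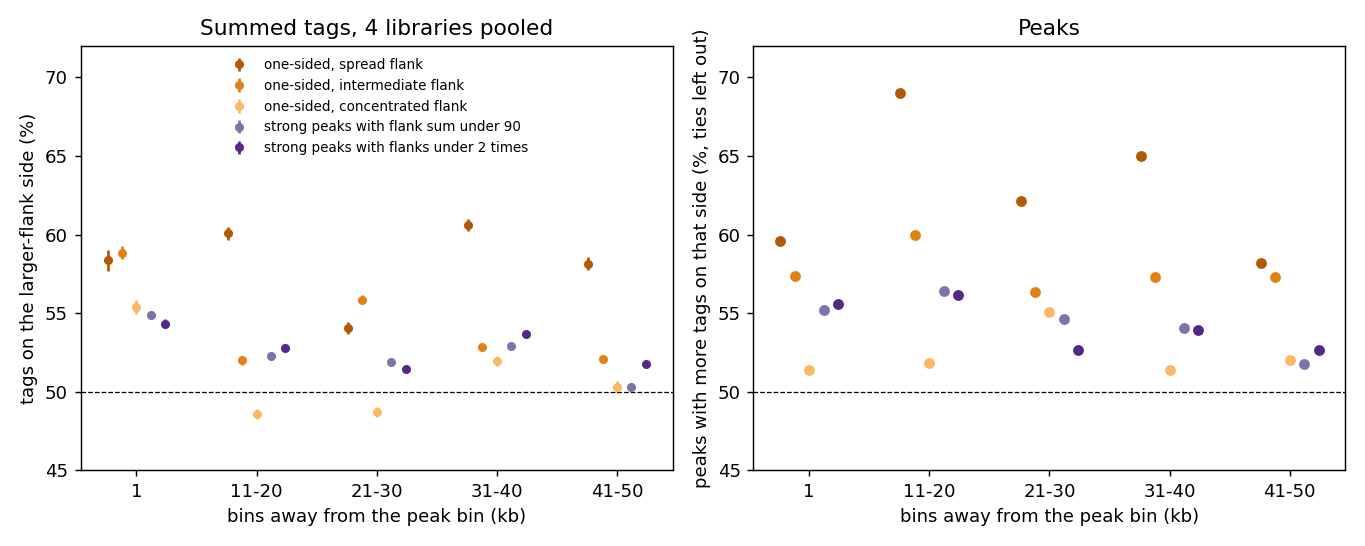
Share of pooled tags on the larger-flank side with exact 95% intervals (left), and share of peaks with more tags on that side (right), by distance from the peak bin in kb, for one-sided peaks by the form of their flank and for the other strong peaks. Dashed lines mark 50%, and only zones outside the summed bins are shown. Spread flanks reach 60.1% at 11 to 20 kb, and concentrated flanks stay near 50%.

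Single peaks could have extreme shares. At chr5:130131001-130132000 all 133 tags at 11 to 20 kb were on the larger-flank side and none on the other, and the smaller flank held 4 pooled tags. At chr9:3036001-3037000 the counts were 806 and 5, and at chr9:3000001-3001000 they were 386 and 0. On chromosome 9 the first bin with any tag starts at 2999001, so the smaller flank of the last of these lies before the first tags of the chromosome and its side says nothing. At the other sites the sparse side also held fewer tags than the peak-free density, 2.82 pooled tags per kb. Whether reads could be placed there was not tested, so these shares may not show where Pol II lay. The opposite also occurred: chr4:116688001-116689000 and chr4:116700001-116701000, a pair 12 kb apart whose larger flanks point away from each other, had 4.5% and 4.6% of these tags on the larger-flank side, because the distance covers the neighbouring peak.

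The rule itself lets no higher bin lie within 10 bins of a strong peak. In 803 of the one-sided peaks no other strong peak lay within 20 kb, lower peaks in the flank not counted, and the median distance to the next strong peak was 78 kb on the larger-flank side and 95 kb on the other. Among neighbours within 20 kb there were 41 successive pairs, of which 12 pointed the same way, 14 toward each other and 15 apart, and 28 peaks shared flank bins with another one. Those 28 counted the same tags more than once. The share of strong peaks that were one-sided ran between 16.3% on chromosome 10 (95% interval 11.6 to 21.9) and 26.9% on chromosome 17 (21.4 to 32.9), with overlapping intervals, and chromosome 11 held most, 104.

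In the peak bin, Pol II was lower in each knockdown library than with shControl, and most of all with shSpt5. The median peak held 18.9 normalised tags with shSpt4, 14.1 with shSpt5, 17.4 with shNelfE and 23.7 with shControl. The median log2 ratio to shControl was −0.28 with shSpt4 (95% interval −0.31 to −0.25), −0.77 with shSpt5 (−0.81 to −0.73) and −0.42 with shNelfE (−0.44 to −0.40), which are ratios of 0.824, 0.587 and 0.748 in that order. The peak bin was below shControl in 750 of 993 peaks with shSpt4, 926 with shSpt5 and 889 with shNelfE. The standard deviation of the log2 ratio over peaks was 0.50 with shSpt4, 0.66 with shSpt5 and 0.36 with shNelfE. On the scale of the peak-free tiles the medians were −0.51 with shSpt4, −1.18 with shSpt5 and −0.64 with shNelfE. The other strong peaks had medians close to these, of −0.33 with shSpt4, −0.82 with shSpt5 and −0.45 with shNelfE where the fold was missed, and of −0.24, −0.71 and −0.43 in the same order where the sum was missed, and all these values share the shControl library.

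The larger flank was lower too, by a smaller factor with shSpt5 and shNelfE. The median flank held 15.5 normalised tags with shSpt4, 13.5 with shSpt5, 16.3 with shNelfE and 18.9 with shControl. The median log2 ratio was −0.27 with shSpt4 (−0.31 to −0.23), −0.50 with shSpt5 (−0.54 to −0.46) and −0.27 with shNelfE (−0.30 to −0.24), and it was below 0 in 726, 819 and 759 peaks in that order. By peak-free tiles the medians were −0.51 with shSpt4, −0.91 with shSpt5 and −0.49 with shNelfE. The smaller flank differed little from shControl on the scale of kept tags, with medians of −0.05 with shSpt4, 0.02 with shSpt5 and −0.00 with shNelfE. Its summed tags were 0.921 of shControl with shSpt4, 0.956 with shSpt5 and 0.972 with shNelfE on that scale. By peak-free tiles these sums were lower, at 0.782 with shSpt4, 0.720 with shSpt5 and 0.835 with shNelfE. That side had been chosen for holding few tags, and it held a median of 6.33 pooled tags per kb, against 2.82 in the peak-free tiles.

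The flank relative to the peak is free of how libraries are scaled. Its median log2 ratio to shControl was 0.04 with shSpt4 (−0.00 to 0.07), 0.28 with shSpt5 (0.23 to 0.33) and 0.16 with shNelfE (0.12 to 0.19). The flank held a median of 9.52% of the peak's density with shSpt4, 11.7% with shSpt5, 10.9% with shNelfE and 9.70% with shControl. With the density of the peak-free tiles taken off both, the medians were −0.02 with shSpt4 (−0.06 to 0.01), 0.15 with shSpt5 (0.10 to 0.19) and 0.10 with shNelfE (0.06 to 0.14), so the values for shSpt5 and shNelfE were smaller with that density taken off and those intervals still left out 0. Summed over all peaks with that density taken off, and scaled by tiles, the peak bins held 0.718 of the shControl tags with shSpt4, 0.460 with shSpt5 and 0.664 with shNelfE, and the larger flanks held 0.686 with shSpt4, 0.485 with shSpt5 and 0.686 with shNelfE. On these sums, peak and flank differed from shControl by nearly the same factor in every knockdown library.

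**Figure D3:**
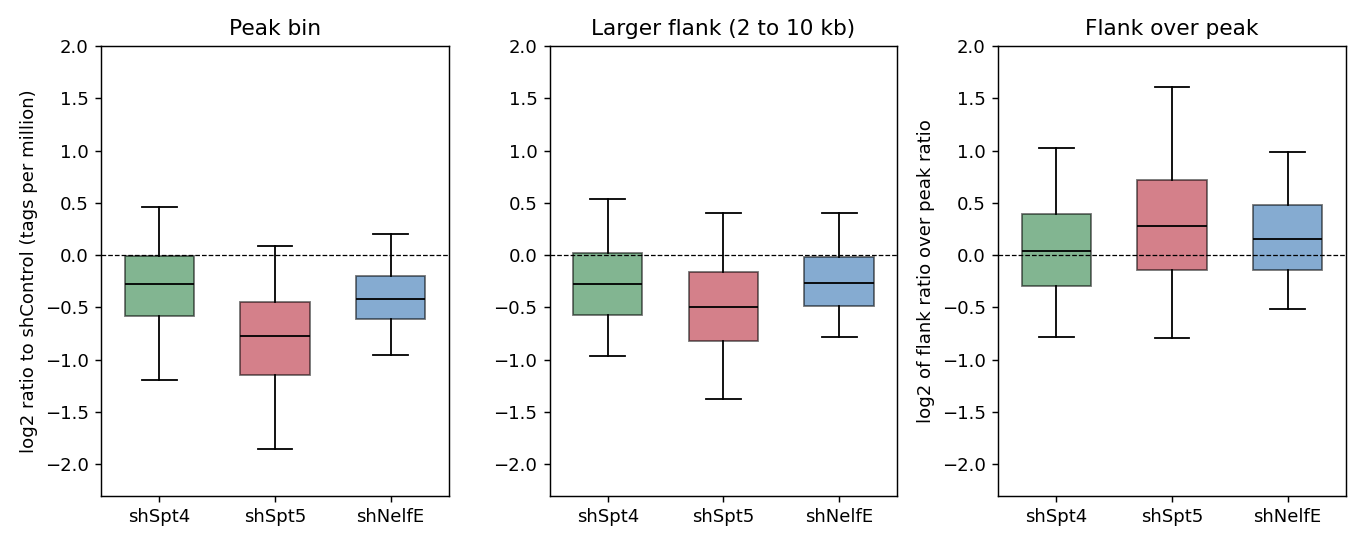
Log2 ratio to shControl over the 993 peaks in shSpt4, shSpt5 and shNelfE, for the peak bin, the larger flank and the flank over the peak, in tags per 1000000 kept tags. Boxes span the quartiles with the median as a line, whiskers reach the 5th and 95th percentiles, and the dashed line marks no difference; the shSpt5 medians are −0.77, −0.50 and 0.28.

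The highest flank bin and the rest of the flank did not move alike. In the highest flank bin, a median of 81 pooled tags, the median log2 ratio was −0.37 with shSpt4 (−0.42 to −0.31), −0.76 with shSpt5 (−0.81 to −0.71) and −0.38 with shNelfE (−0.43 to −0.34). In the other 8 flank bins together, a median of 13.4 pooled tags per kb, it was −0.19 with shSpt4 (−0.23 to −0.16), −0.27 with shSpt5 (−0.32 to −0.23) and −0.17 with shNelfE (−0.21 to −0.14). The highest flank bin was thus as far below shControl in shSpt5 as the peak bin was. That bin was picked on pooled tags, to which shControl gave the most, and the part of this choice in its ratios was not tested.

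The form of the flank went with the size of the difference. Spread flanks also held fewer tags, a median of 12.6 normalised tags with shControl against 23.0 in concentrated ones. Form and number of flank tags were not separated. For spread flanks the flank over the peak had a median log2 ratio of 0.07 with shSpt4 (0.00 to 0.17), 0.44 with shSpt5 (0.32 to 0.58) and 0.26 with shNelfE (0.18 to 0.37). For concentrated flanks it was 0.02 with shSpt4 (−0.03 to 0.08), 0.16 with shSpt5 (0.10 to 0.23) and 0.03 with shNelfE (−0.01 to 0.12). The intervals of spread and concentrated flanks did not overlap with shSpt5 or with shNelfE. Intermediate flanks gave 0.31 with shSpt5 (0.24 to 0.38) and 0.18 with shNelfE (0.13 to 0.22), intervals that overlapped those of spread flanks. With the peak-free density taken off, spread flanks still gave 0.31 with shSpt5 (0.14 to 0.47) and 0.21 with shNelfE (0.11 to 0.34), and concentrated flanks gave 0.05 with shSpt5 (−0.04 to 0.14) and −0.02 with shNelfE (−0.08 to 0.07), intervals that meet narrowly for shSpt5. The peak bin itself had medians of −0.82 in shSpt5 with a spread flank and −0.71 with a concentrated one, and its intervals overlapped between the forms.

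The difference was not even along the peak region. Within 150 bp of the summit the summed tags were 0.847 of shControl with shSpt4 (0.837 to 0.857), 0.596 with shSpt5 (0.588 to 0.603) and 0.761 with shNelfE (0.752 to 0.771). At 200 to 500 bp toward the larger flank they were 0.850 with shSpt4, 0.680 with shSpt5 (0.664 to 0.697) and 0.811 with shNelfE (0.792 to 0.830). At 550 to 1000 bp on that side they were 0.847 with shSpt4, 0.638 with shSpt5 (0.619 to 0.657) and 0.785 with shNelfE (0.762 to 0.808). The shSpt5 ratio was thus lowest at the summit, while that of shNelfE at the summit was below the value at 200 to 500 bp and met the interval at 550 to 1000 bp. In shSpt4 the ratio did not differ between these stretches beyond counting error. On the smaller-flank side the shSpt4 ratio was 0.840 (0.821 to 0.859) at 200 to 500 bp. At 550 to 1000 bp on that side it was 0.894 (0.867 to 0.921), above the summit value beyond counting error. In 1 kb bins the shSpt5 ratio was 0.695 at 2 to 4 kb, 0.723 at 5 to 7 kb, 0.667 at 8 to 10 kb and 0.770 at 11 to 20 kb on the larger-flank side.

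**Figure D4:**
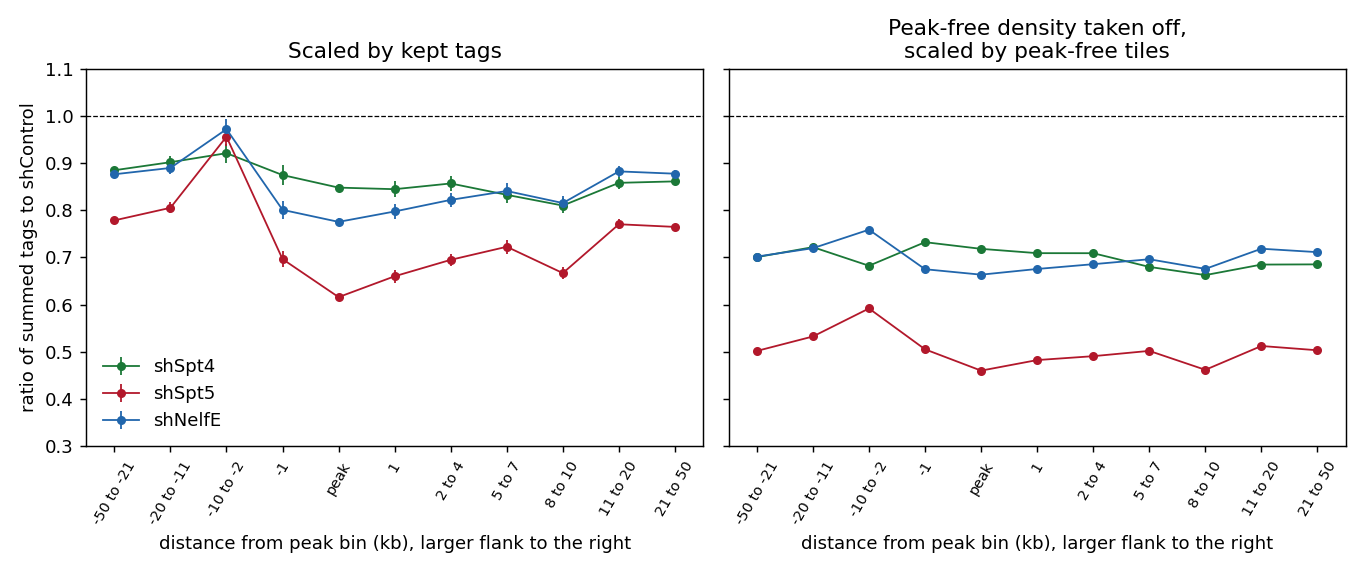
Ratio of summed tags to shControl in shSpt4, shSpt5 and shNelfE by distance from the peak bin in kb, larger flank to the right, over 993 peaks. At left tags are scaled by kept tags with exact 95% intervals, and at right the peak-free density is taken off and tags are scaled by peak-free tiles; at right the shSpt5 values lie between 0.460 in the peak bin and 0.592 at 2 to 10 kb on the smaller side.

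Peak by peak, a ratio was called when it was at least 2 or at most 0.5 and its exact interval excluded 1. In the peak bin 90 peaks were called lower with shSpt4, where 6.32% of all 4684 strong peaks were, 330 with shSpt5, where 31.7% of all were, and 46 with shNelfE, where 5.34% were. Among the 993 peaks these are 9.06% with shSpt4, 33.2% with shSpt5 and 4.63% with shNelfE, near the background for shSpt5 and shNelfE. Calls of a higher peak bin numbered 6 with shSpt4, with a background of 0.427%, 5 with shSpt5, with 0.32%, and 1 with shNelfE, with 0.0213%. For the flank, set against the 1978 strong peaks with a flank of 90 or more, 44 were called lower with shSpt4 (background 5.92%), 160 with shSpt5 (14.1%) and 9 with shNelfE (1.47%), and 11 were called higher with shSpt4 (0.961%), 6 with shSpt5 (0.708%) and 5 with shNelfE (0.404%). A flank raised relative to its peak was called in 48 peaks with shSpt4 (5.81%), 157 with shSpt5 (19.2%) and 45 with shNelfE (6.17%), and a lowered one in 25 (2.43%), 23 (2.07%) and 4 (0.556%) in the same order. As shares of the 993 peaks the lower flanks are 4.43% with shSpt4, 16.1% with shSpt5 and 0.906% with shNelfE, and a background includes these peaks themselves, so none of these counts is read as particular to them.

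Most peaks with a called peak bin had no called flank, but flank calls were more frequent among them than among the rest. Of the 330 peaks called lower in shSpt5, 84 also had a flank called lower, against 76 of the 663 peaks not called, and in 159 of the 330 the interval of the flank ratio held 1. In shSpt4 the flank was called lower in 13 of the 90 called peaks and 31 of the 903 others. In shNelfE there were too few flank calls, 9 in all, to compare. In shSpt5 the flanks of the 330 called peaks had a median log2 ratio of −0.62 (−0.70 to −0.55), against −0.45 (−0.50 to −0.41) in the 663 peaks not called. In shSpt4 the flanks had medians of −0.56 in the 90 called peaks and −0.24 in the others, and in shNelfE −0.43 in 46 and −0.26 in the others. Across the 993 peaks, which share libraries and depth, Pearson's r between the log2 ratio of the peak bin and that of the flank was 0.34 with shSpt4, 0.29 with shSpt5 and 0.18 with shNelfE.

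Between the knockdown libraries, which shared a flow cell, shSpt5 was also the lowest. The median log2 ratio of shSpt5 over shSpt4 was −0.46 in the peak bin (−0.50 to −0.43), −0.24 in the flank (−0.26 to −0.18) and 0.24 in the flank over the peak (0.20 to 0.28). That of shNelfE over shSpt4 was −0.13 in the peak bin (−0.15 to −0.10) and −0.01 in the flank (−0.04 to 0.03), and that of shNelfE over shSpt5 was 0.36 in the peak bin and 0.25 in the flank. Of the 3, shSpt5 had the lowest peak bin in 710 of 993 peaks and the lowest flank in 571. These ratios hold no shControl tags, but the peaks and their sides were chosen on all 4 libraries, shControl included. The shSpt5 library also had the largest share of repeated reads, 17.7%.

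The tallest peaks did not follow the rest. Of the 10 peaks with most pooled tags, 8 had a ratio to shControl above 1 in the peak bin in each knockdown, and the median over the 10 was 1.41 with shSpt4, 1.23 with shSpt5 and 1.31 with shNelfE. The ranking sums all 4 libraries, so it favours peaks that are high in the 3 knockdown libraries. By peak-free tiles 8 were above 1 with shSpt4 and with shNelfE, but only 2 with shSpt5. The tallest, chr17:39452001-39453000, held 792 tags with shSpt4, 657 with shSpt5, 912 with shNelfE and 1161 with shControl, and its flank held 1140 with shSpt4, 992 with shSpt5, 1363 with shNelfE and 1603 with shControl, of which one bin 4 kb away had 2912 of the 5098 pooled tags. With so many tags in 1 kb, keeping 1 per position limits the count: with all reads kept its peak ratio was 0.655 with shSpt4, 0.438 with shSpt5 and 0.760 with shNelfE, against 0.817, 0.576 and 0.848 in the same order with 1 tag kept. This peak added hardly any tags at 11 to 20 kb. The pooled sum over one-sided peaks there was 151335 with it and 151332 without it on the larger-flank side. On the other side the sums were 136292 and 136288. Whether repeated sequence raises its counts was not tested, so its ratios may not be those of a Pol II peak.

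Most of the next peaks in height were higher in the knockdown libraries. The third tallest, chr13:23746001-23747000, was not, with peak ratios of 0.890 (0.772 to 1.03) with shSpt4, 0.897 (0.783 to 1.03) with shSpt5 and 0.981 (0.858 to 1.12) with shNelfE. At the second tallest, chr6:124706001-124707000 the peak bin held 496 tags with shSpt4, 430 with shSpt5, 475 with shNelfE and 418 with shControl, ratios of 1.42 (1.25 to 1.62) with shSpt4, 1.05 (0.913 to 1.20) with shSpt5 and 1.23 (1.07 to 1.40) with shNelfE, of which the shSpt5 interval held 1. Its flank went the other way, with 76 tags with shSpt4, 71 with shSpt5, 76 with shNelfE and 137 with shControl. The shControl library thus had the fewest tags in the peak and the most in the flank, and the flank over the peak was −1.09 (−1.54 to −0.65) on the log2 scale with shSpt4, −0.98 (−1.44 to −0.53) with shSpt5 and −1.03 (−1.48 to −0.58) with shNelfE. At chr9:64994001-64995000 both were higher, the peak bin with 358 tags with shSpt4, 370 with shSpt5, 375 with shNelfE and 253 with shControl, and the flank with 188 with shSpt4, 205 with shSpt5, 168 with shNelfE and 124 with shControl. A pair 20 kb apart on chromosome 11 behaved alike: chr11:87239001-87240000 had 371 tags with shSpt4, 327 with shSpt5, 311 with shNelfE and 278 with shControl, and chr11:87259001-87260000 had 300 with shSpt4, 302 with shSpt5, 295 with shNelfE and 200 with shControl. Their flanks were concentrated, with single bins of 924 and 1007 pooled tags.

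**Figure D5:**
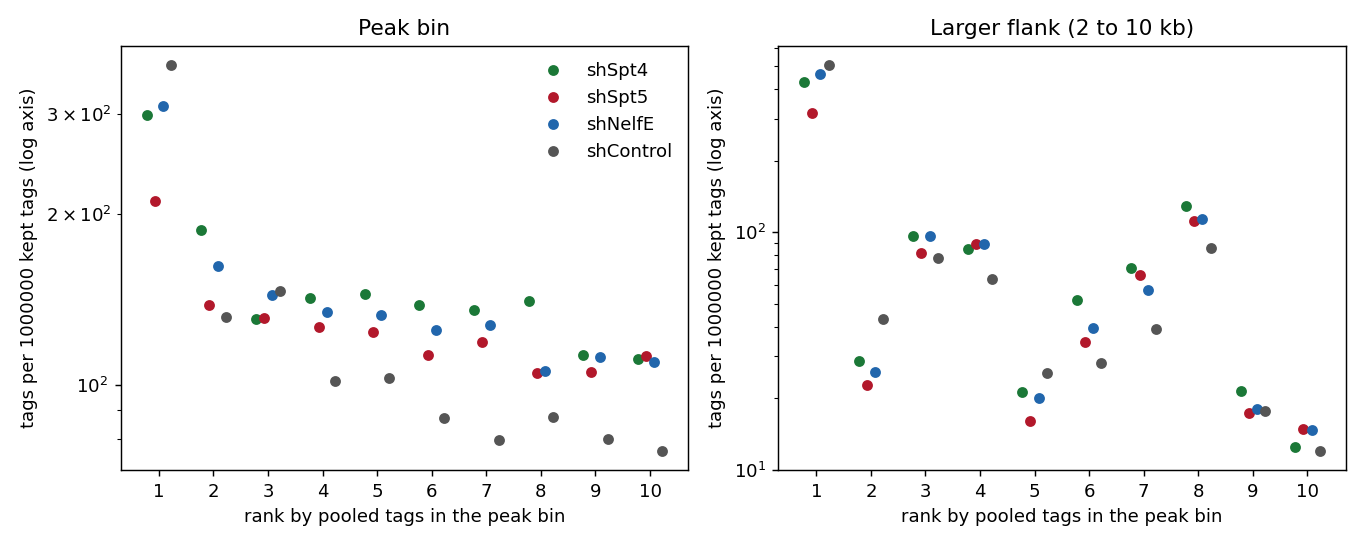
Tags per 1000000 kept tags (log axis) in the peak bin (left) and the larger flank (right) of the 10 one-sided peaks with most pooled peak tags, in shSpt4, shSpt5, shNelfE and shControl. In the peak bin shControl is the highest at ranks 1 and 3 and lies below shSpt4 and shNelfE at the other 8 ranks; no error bars are drawn, since each point is 1 library.

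The largest differences upward were few. At chr4:116688001-116689000 the peak bin held 160 tags with shSpt4, 214 with shSpt5, 192 with shNelfE and 78 with shControl, ratios of 2.46 (1.86 to 3.26), 2.79 (2.14 to 3.67) and 2.66 (2.03 to 3.50) in that order, while its flank, mostly 1 bin 8 kb away, held 71 with shSpt4, 61 with shSpt5, 53 with shNelfE and 94 with shControl. This was the sole peak bin called higher with shNelfE, and it had the lowest flank over peak with shSpt5 and with shNelfE, −2.07 and −2.11 on the log2 scale. At chr13:23692001-23693000 the flank held 34 tags with shSpt4, 47 with shSpt5, 38 with shNelfE and 16 with shControl, a ratio of 2.54 (1.37 to 4.94) with shSpt4, 2.99 (1.66 to 5.65) with shSpt5 and 2.56 (1.40 to 4.92) with shNelfE. At chr10:98692001-98693000 the flank rose without the peak, with 55 tags with shSpt4, 66 with shSpt5, 57 with shNelfE and 29 with shControl in the flank, and 113 with shSpt4, 121 with shSpt5, 91 with shNelfE and 120 with shControl in the peak bin. At chr3:127545001-127546000 the flank stood out with shSpt4 alone, with 57 tags, against 16 with shSpt5, 16 with shNelfE and 7 with shControl, and a bin 8 kb away held 50 of the 96 pooled tags.

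The 8 one-sided peaks on chromosome 13 between 21 and 24 Mb lay, as a median, above the one-sided peaks as a whole. They held between 145 and 1640 pooled peak tags. Their median log2 ratio in the peak bin was 0.01 with shSpt4, −0.15 with shSpt5 and −0.09 with shNelfE, against −0.28, −0.77 and −0.42 over all one-sided peaks. In the flank it was 0.36 with shSpt4, 0.23 with shSpt5 and 0.17 with shNelfE. The tallest of them, chr13:23746001-23747000, had 345 tags with shSpt4, 409 with shSpt5, 422 with shNelfE and 464 with shControl in the peak bin and 256, 254, 284 and 247 in its flank in that order. Beside its 1640 pooled tags, that peak bin held 653 of another deposited category of reads, which entered no count here. One of the 8, chr13:21187001-21188000, went the other way, with 60 tags with shSpt4, 39 with shSpt5, 63 with shNelfE and 110 with shControl in the peak bin and 26 with shSpt4, 27 with shSpt5, 29 with shNelfE and 41 with shControl in the flank. The stretch was picked after its values were seen, so this is a description of 8 peaks.

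The lowest peak bins with shSpt4 were low with shSpt5 as well and much less so with shNelfE. At chr17:36654001-36655000 the peak bin held 18 tags with shSpt4, 20 with shSpt5, 75 with shNelfE and 128 with shControl, ratios of 0.168 (0.097 to 0.277) with shSpt4, 0.159 (0.094 to 0.256) with shSpt5 and 0.632 (0.469 to 0.847) with shNelfE. At chr11:51494001-51495000 it held 22 with shSpt4, 27 with shSpt5, 70 with shNelfE and 116 with shControl, with 48, 79, 165 and 187 flank tags in that order. At chr12:87409001-87410000, a peak with a spread flank, the peak bin held 21 with shSpt4, 28 with shSpt5, 83 with shNelfE and 102 with shControl, and the flank held 41 with shSpt4, 40 with shSpt5, 129 with shNelfE and 171 with shControl. Peak and flank were reduced by like factors there, with flank ratios of 0.287 (0.199 to 0.406) with shSpt4 and 0.238 (0.164 to 0.337) with shSpt5, while with shNelfE the intervals of both held 1. At chr19:46098001-46099000 all 3 knockdown libraries were low, with 24 tags with shSpt4, 17 with shSpt5, 28 with shNelfE and 98 with shControl in the peak bin.

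In shSpt5 the peak bin was nearly empty at a few sites whose flanks still held tags. It held 10 tags or fewer in 13 peaks with shSpt5, 1 with shSpt4, 0 with shNelfE and 0 with shControl. At chr3:41710001-41711000 there were 37 tags with shSpt4, 0 with shSpt5, 30 with shNelfE and 66 with shControl, at least 21.6-fold lower with shSpt5 than with shControl with 3 tags in that library as the floor. With both adjacent bins the counts were 85 with shSpt4, 8 with shSpt5, 73 with shNelfE and 110 with shControl, and the flank held 112 with shSpt4, 27 with shSpt5, 89 with shNelfE and 114 with shControl. At chr4:153786001-153787000 the peak bin held 99 with shSpt4, 10 with shSpt5, 98 with shNelfE and 113 with shControl, and with the adjacent bins 174 with shSpt4, 27 with shSpt5, 173 with shNelfE and 188 with shControl. There shSpt5 stood apart from the other 3 libraries, and its flank held 24 with shSpt4, 23 with shSpt5, 24 with shNelfE and 32 with shControl. At chr5:53946001-53947000 the peak bin held 37 with shSpt4, 1 with shSpt5, 48 with shNelfE and 48 with shControl, a shSpt5 ratio of 0.021 (0.00053 to 0.124), and the flank ratio there was 0.339 (0.227 to 0.496). At chr8:35310001-35311000 a spread flank held 141 with shSpt4, 68 with shSpt5, 104 with shNelfE and 130 with shControl beside a peak bin of 25 with shSpt4, 4 with shSpt5, 26 with shNelfE and 48 with shControl.

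The flank over the peak was smaller at tall peaks with shSpt5 and shNelfE. Among the 248 peaks with 100 to 150 pooled tags its median log2 ratio was 0.15 with shSpt4 (0.05 to 0.25), 0.39 with shSpt5 (0.26 to 0.54) and 0.21 with shNelfE (0.14 to 0.32). Among the 249 with 330 to 3522 tags it was −0.01 with shSpt4 (−0.09 to 0.06), 0.16 with shSpt5 (0.08 to 0.22) and 0.06 with shNelfE (−0.01 to 0.14). The groups between, of 151 to 220 and of 221 to 329 tags, gave 0.35 and 0.30 with shSpt5 and 0.19 and 0.16 with shNelfE, but −0.01 and 0.05 with shSpt4, which showed no steady order. Flank tags gave a like split: the flank over the peak was 0.43 with shSpt5 and 0.27 with shNelfE in the 248 peaks with fewest flank tags, and 0.13 and 0.03 in the 249 with most. The peak-free density was not taken off in these groups, and its part in the splits was not tested. The direction of the flank on the chromosome did not go with the flank over the peak: in shSpt5 the median was 0.28 for flanks at higher coordinates (0.23 to 0.35) and 0.29 for flanks at lower ones (0.20 to 0.38). In the peak bin the shSpt4 median was −0.2346 (−0.2787 to −0.1982) for higher coordinates and −0.3182 (−0.3640 to −0.2792) for lower ones. Those intervals narrowly failed to overlap, while the peak-bin intervals of shSpt5 and of shNelfE overlapped.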

How the data were processed

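The deposited files list aligned read positions, a coordinate per read whose sign gives the strand, not normalized, per the file headers. The submitters aligned reads with Bowtie (version not given in the sources used here) to mm8 with options -e 70, -k 2, -m 2, -n 2 and -l 36, per the submitters' processing notes and the file headers. The other deposited category of reads and chromosome X entered no comparison. Pooled over the libraries, 111 of the 993 peak bins held 20 or more tags of that other category, and their part in the ratios was not tested. From the first category, 1 tag per signed position was kept, moved 41 bp toward the fragment centre and counted in 1 kb bins. The members and lists were chosen with earlier results of these data known. Ratios have exact 95% binomial intervals (scipy 1.17.1), the flank over the peak a normal interval on the log scale, and medians order-statistic intervals with 0.5 tags added. Reads copied by PCR are not independent molecules, so the floors and the intervals of ratios and shares cover counting error only. Those of summed tags also take tags of the same peak as independent. Intervals of medians cover the spread over peaks. The choice of peaks and sides and the ratio intervals were tested on simulated bin counts, with flanks that were even. The reading of files, the removal of repeated reads, the move of tags and the binning were not tested this way. Peaks named in the text were the 10 with most peak tags, the 6 with most flank tags, the 4 highest and lowest ratios per knockdown in peak and flank with at least 50 tags, the 3 highest and lowest flanks over peaks, the 3 highest shares at 11 to 20 kb, and 2 on each side of each limit; the order is by rank and not all are described. The chromosome 13 stretch and the 50% limit for concentrated flanks were chosen after values were seen. Alternatives covered repeated reads, the shift, the bin start, the limits, the libraries that chose peaks, scaling, depth, background, pseudocount and call size. Positions are printed as bin number times 1000 plus 1; no header read here states whether counting starts at 0 or 1. Sequences and gene names were not used here, since the reference tables describe another build. Whole cell extract, which the design names as the background, was not analysed here.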

Additional observations from a re-analysis of the deposited data

Results flagged for a closer look

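Chromosome X was outside the choice of peaks, which covered autosomes. The same rule on its bins gave 17 one-sided peaks among 102 strong peaks, a signal in data that no comparison used. Their median log2 ratio to shControl in the peak bin was −0.17 in shSpt4, −0.73 in shSpt5 and −0.43 in shNelfE, and in the larger flank −0.07 in shSpt4, −0.40 in shSpt5 and −0.22 in shNelfE.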

How the results depend on the processing

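No paired analysis was possible because each group held 1 library. Under the alternatives tried no median or share turned its direction, except the flank over peak for shSpt4, whose main interval held 0, and 133 of the recomputed summary values stayed within their main interval or within 1.5 times the main count, while 106 moved. The cause of each move was not tested unless the alternative itself holds fewer peaks or changes the scale. Values are given for shSpt4, then shSpt5, then shNelfE, over shControl, and calls are of lower ratios.

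Scaling by peak-free tiles gave peak medians of −0.51, −1.18 and −0.64, flank medians of −0.51, −0.91 and −0.49, 165, 649 and 130 peak calls and 142, 433 and 57 flank calls. It also left 2 of the 10 tallest peaks above 1 in shSpt5, against 8 by kept tags. The peak bin at chr6:124706001, whose main interval held 1, gave 0.789. Those turned to below 1 whose main interval lay above 1 were, in the peak bin, 0.938 at chr1:72177001, 0.910 at chr11:68889001, 0.971 at chr4:116700001, 0.902 at chr11:87239001 and 0.990 at chr10:39948001, and in the flank 0.980 at chr11:87239001. Taking the background off gave flank medians of −0.35, −0.66 and −0.34 and flank over peak of −0.022, 0.15 and 0.10. A pseudocount of 5 tags gave peak medians of −0.24, −0.71 and −0.38 and flank medians of −0.45 in shSpt5 and −0.24 in shNelfE. Calls at 1.5-fold numbered 228, 624 and 266 for the peak and 205, 387 and 132 for the flank. With libraries thinned to equal depth, shNelfE had 19 flank calls.

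Keeping all reads gave peak medians of −0.34, −0.84 and −0.45, flank over peak of 0.37 in shSpt5 and 0.19 in shNelfE, 74 peak and 21 flank calls in shNelfE, and shares on the larger-flank side of 51.9% at 11 to 20 kb, 56.8% in the adjacent bins and 77.5% in libraries left out. Unmoved tags gave 51.7% at 11 to 20 kb, and bins starting 500 bp later gave 56.4% in the adjacent bins and 77.3% in libraries left out. Without the chromosome 17 peak of 5098 flank tags, a setting chosen after seeing the data, the share in libraries left out was 77.4%, against 77.7% with it.

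Other limits changed which peaks entered. Peak bins of 150 or more gave 50.6% at 11 to 20 kb, 78.6% in libraries left out, 41, 219 and 25 peak calls and 28 flank calls in shSpt4. A 3-fold difference between sides left 542 peaks, with 52.4% at 11 to 20 kb, 58.2% in the adjacent bins, 82.5% in libraries left out, a flank median of −0.30 in shNelfE, flank over peak of 0.21 in shSpt5 and 0.12 in shNelfE, 42, 159 and 25 peak calls and 20, 93 and 4 flank calls. Peaks with no other strong peak within 20 kb gave 56.2% at 11 to 20 kb, 56.4% in the adjacent bins and 28 flank calls in shSpt4. The 201 spread flanks alone gave 60.1% at 11 to 20 kb, 58.4% in the adjacent bins, 72.1% in libraries left out, peak medians of −0.82 in shSpt5 and −0.39 in shNelfE, flank medians of −0.21, −0.36 and −0.16, flank over peak of 0.070, 0.44 and 0.26, 18, 71 and 9 peak calls and 12, 28 and 0 flank calls.

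Peaks chosen on shControl alone gave 52.8% at 11 to 20 kb, 57.1% in the adjacent bins, peak medians of −0.38, −0.87 and −0.48, flank medians of −0.36, −0.57 and −0.30, flank over peak of 0.35 in shSpt5, 212, 594 and 149 peak calls and 115, 255 and 42 flank calls. Peaks chosen on the knockdown libraries gave 51.0% at 11 to 20 kb, 57.7% in the adjacent bins, peak medians of −0.23 in shSpt4 and −0.71 in shSpt5, 51 peak calls in shSpt4 and 25 in shNelfE, and 28 flank calls in shSpt4. Every alternative kept the order of the peak medians, with shSpt5 lowest, then shNelfE, then shSpt4. Depth limits single peaks most: a peak bin at the rule's minimum holds 100 tags over all libraries.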
